A study of Drosophila melanogaster with 12 samples.

Results

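The comparison reported here set the change over 24 hours in cut wing discs against the change over the same 24 hours in intact wing discs. For each gene the measure is the difference between the log2 ratio of 24 over 0 hours in cut discs and the same ratio in intact discs, so a positive value means a larger rise, or a smaller fall, after cutting. A difference of 1 on this scale is 2-fold. The arrays were chosen by their labels alone, 4 of cut and 4 of intact discs, which makes 8 of the 12 arrays in the series, and 12058 genes were measured on each. The design text describes the intact discs as the means to subtract what implantation alone does.

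Cut discs had lost a sector of the posterior compartment, and the larger, anterior fragment was implanted. Intact discs were implanted whole. In both groups the discs were wing imaginal discs from larvae of the third instar of the isogenic DrosDel line w118iso; 2iso; 3iso (spelled w1118 in the methods), and the hosts were recently eclosed Canton S females, so both groups share the line, the host and the stay in the abdomen. Each group has 2 biological replicates, and each replicate was hybridised in both dye orders with the same amplified RNA. No array held cut and intact RNA together, the 0-hour RNA of each kind enters the difference, and the authors normalised the cut and intact arrays as separate sets, so an effect of the set and an effect of the cut cannot be told apart. The files hold ratios and no intensities, so the levels of wing disc markers could not be checked. With 2 replicates a side, precision is limited by how few arrays there are, and the p-values measure only the spread between replicates. That spread was pooled over all 3 groups of the series, so the later cut discs also enter every standard error, interval and p-value. For some genes it can therefore exceed what the cut and intact replicates show.

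A wing imaginal disc is an epithelial sac of the larva that becomes the adult wing and part of the thorax. When a piece is removed and the rest is cultured in an adult abdomen, the wound edges close under control of Jun kinase (JNK) signalling and the remaining cells proliferate to replace what was lost. The abdomen of the host is filled with hemolymph, in which blood cells (hemocytes) take up debris and seal wounds, and with fat body, the organ that secretes most hemolymph proteins. In the larva, hemocytes also lie on the basal surface of discs.

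Few genes differed between cut and intact discs beyond the spread of the replicates, and those that did include genes of hemocytes, fat body and cuticle. In limma, at a Benjamini-Hochberg adjusted p under 0.05 and at least 1.5-fold, 7 of 12058 genes were higher in cut discs (0.0581%) and 2 were lower (0.0166%). At an unadjusted p under 0.05 there were 368 higher (3.05%) and 348 lower (2.89%). Both cut replicates lay above both intact replicates for 2059 genes (17.1%) and below them for 2413 (20.0%). For 339 of the 12058 genes all cut arrays lay on the same side of all intact arrays at an unadjusted p under 0.05. The median difference over all genes was -0.01, the standard deviation of the difference over genes was 0.188, and the median standard error of a gene was 0.133. At 1.5-fold or more, with or without a small p, 120 genes stood on the higher side and 47 on the lower. The calls depended on how replicates were treated. With the replicate number as a block, or with limma's treat against 1.5-fold, 0 genes were called. Without cut replicate 1, cut replicate 2 or intact replicate 1 there were 0 calls, and without intact replicate 2 there were 3, of which His1:CG31617 is shared with the 9. Leaving out a single array, dye-swap B of cut replicate 2, gave 41 higher and 28 lower calls, the 9 among them, with the dye order then unbalanced in cut discs.

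**Figure D1:**
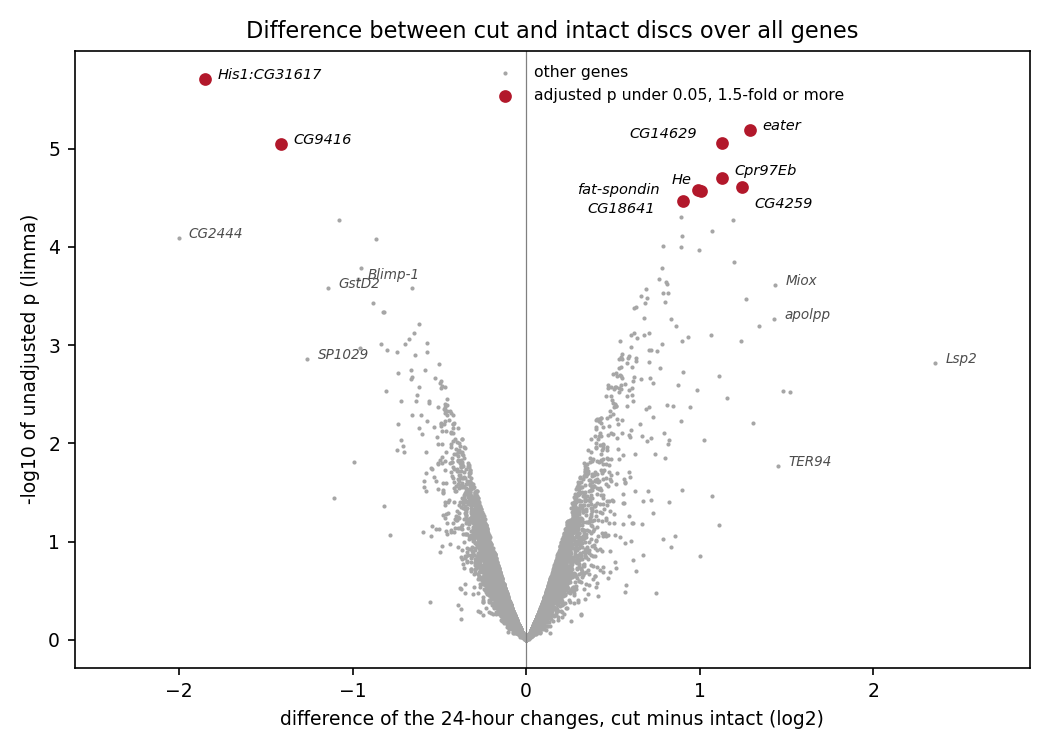
Each dot is 1 of 12058 genes. The x axis is the difference of the 24-hour changes, cut minus intact discs, on the log2 scale, and the y axis is -log10 of the unadjusted p from limma. The 9 red dots are the genes that passed an adjusted p of 0.05 and 1.5-fold, 7 to the right of 0 and 2 to the left, and Lsp2, the largest difference at 2.36, lies below them because its intact replicates were far apart.

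The hemocyte genes that passed were eater and Hemese (He). The eater gene encodes a receptor with which hemocytes bind and engulf bacteria. Its ratio was 1.51 and 1.36 in cut discs, against 0.23 and 0.06 in intact discs. The cut arrays ran from 1.0 to 1.76 and the intact arrays from 0.0 to 0.29, without overlap, and the difference was 1.29 ± 0.134 (SE, adjusted p = 0.0268, limma). He encodes a surface protein found on hemocytes of the larva. Its ratio was 0.48 and 0.47 in cut discs, against -0.56 and -0.51 in intact discs, positive in both cut replicates and negative in both intact ones. The 4 cut arrays, from 0.35 to 0.59, lay above the 4 intact ones, from -0.73 to -0.29, and the difference of 1.01 ± 0.125 (SE, adjusted p = 0.0404) was 1.02 in the dye-swap A arrays and 1.0 in the B arrays.

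The fat body and the cuticle are represented by fat-spondin and Cpr97Eb. The secreted protein fat-spondin takes its name from its expression in fat body. Its ratio was 2.03 and 1.89 in cut discs, against 1.06 and 0.89 in intact discs, and the difference was 0.99 ± 0.122 (SE, adjusted p = 0.0404). All 4 cut arrays lay above all 4 intact arrays, although the cut arrays spread more widely, from 1.42 to 2.45 against 0.84 to 1.07 in intact discs. Cpr97Eb encodes a cuticle protein with a chitin-binding domain. It was at 1.19 and 1.26 in cut discs, against -0.05 and 0.24 in intact discs, with a difference of 1.13 ± 0.135 (SE, adjusted p = 0.0404). The replicates did not overlap, but the size differed between dye orders, with 1.51 in the A arrays and 0.75 in the B arrays. Intact replicate 1 read -0.69 on dye-swap A and 0.59 on B, while intact replicate 2 read 0.18 and 0.29. The cut arrays ran from 1.0 to 1.51.

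Another 3 genes were higher in cut discs and are known by their annotation numbers alone. CG4259 was at 1.89 and 1.61 in cut discs, against 0.66 and 0.35 in intact discs, a difference of 1.25 ± 0.153 (SE, adjusted p = 0.0404). CG14629 was at 1.80 and 1.65 in cut discs, against 0.64 and 0.56 in intact discs, a difference of 1.13 ± 0.121 (adjusted p = 0.0268). CG18641 was at 0.80 and 0.71 in cut discs, against -0.10 and -0.21 in intact discs, a difference of 0.90 ± 0.116 (adjusted p = 0.0454). For each of the 3, every cut array lay above every intact array.

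The 2 genes that were lower in cut discs are a linker histone gene and CG9416. His1:CG31617 stands for a copy of the gene for histone H1, which binds the DNA between nucleosomes. Its ratio was -0.57 and -0.65 in cut discs, against 1.42 and 1.07 in intact discs, negative in both cut replicates and positive in both intact ones. The difference of -1.85 ± 0.165 (SE, adjusted p = 0.0235) was the largest among the 9, and the cut arrays (-1.12 to -0.18) and intact arrays (0.93 to 1.43) were far apart. Histone H1 is encoded by many near-identical copies in the histone cluster, so which copies the probe reports is uncertain. CG9416, known by its annotation number, had negative ratios in both kinds of disc, -3.54 and -3.12 in cut discs, against -1.98 and -1.86 in intact discs. Its difference was -1.41 ± 0.152 (SE, adjusted p = 0.0268), and it is the 1 gene of the 9 whose arrays overlapped, because dye-swap B of the second cut replicate read -2.06 while its partner read -4.17.

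**Figure D2:**
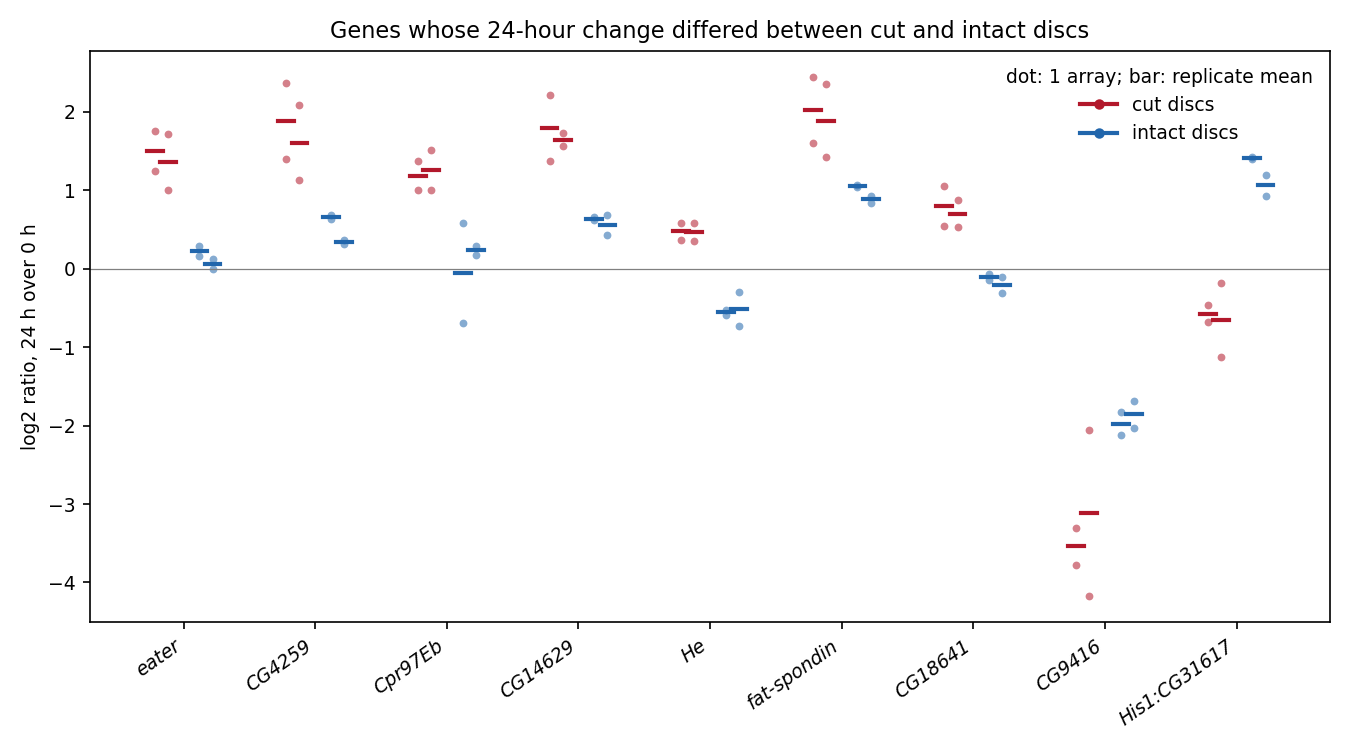
Log2 ratios of 24 over 0 hours for the 9 genes that passed the test, cut discs in red to the left and intact discs in blue to the right of each gene. Dots are single arrays and bars are the means of the 2 dye-swapped arrays of a replicate. The replicate bars of cut and intact discs do not overlap for any of the 9 genes, and the dots overlap only for CG9416.

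Across the hemocyte markers as a list, the difference was positive for 18 of 24 measured genes and the median was 0.25, beside 47.1% of all genes and a median of -0.01. Of these 24 genes, 2 were called higher and 0 lower. On the higher side 10 had an unadjusted p under 0.05 (41.7%, against 3.05% of all genes). On the lower side there was 1 (4.17%, against 2.89%). The called members are eater and He. The members of this list and of the lists below were chosen with earlier results of these data known, so these shares are descriptive only. The median ratio of the list was 0.33 and 0.44 in the cut replicates, against 0.12 and 0.07 in the intact ones. In bulk RNA, more cells of a type and more RNA per cell cannot be told apart.

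Besides eater and He, 8 members had an unadjusted p under 0.05 on the higher side. Hemolectin (Hml), which encodes a clotting protein of the hemolymph, was at 1.58 and 1.30 in cut discs, against 0.57 and 0.71 in intact discs (difference 0.80 ± 0.141, SE, adjusted p = 0.118). The plasmatocyte receptor gene NimC1 was at 0.87 and 0.88 in cut discs, against 0.33 and 0.34 in intact discs (difference 0.54 ± 0.11, adjusted p = 0.182). Collagen IV, which hemocytes and fat body secrete into basement membranes, has its genes Col4a1 and vkg on this side too, with differences of 0.88 and 0.50 (adjusted p = 0.264 and 0.309). In all 4 genes both cut replicates lay above both intact ones, but none passed the adjusted threshold. The other 4, chosen after their values were seen apart from crq, were Nplp2, with the largest difference of the list, 1.48, the GATA factor gene srp (0.72) and the scavenger receptor genes Sr-CI (0.49) and crq (0.44).

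The remaining 13 members on neither side at that p had differences from -0.24 to 0.28. Among them were the phagocyte genes NimC4, drpr and Pxn, at 0.28, 0.20 and 0.09. The prophenoloxidase genes PPO1 and PPO2 of crystal cells, which start melanisation, had differences of 0.28 and 0.22, with unadjusted p-values of 0.124 and 0.241. The lamellocyte gene atilla had a difference of 0.17 (unadjusted p = 0.288). The gene ush, a cofactor of GATA factors that also patterns the disc itself, was the 1 member at an unadjusted p under 0.05 on the lower side, at -0.29. These genes were likewise chosen after their values were seen, apart from ush.

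The larval fat body list, likewise chosen with earlier results known, had the highest median of the 35 lists, 0.28. Of its differences, 14 of 16 were positive (87.5%, against 47.1% of all genes). Of its 16 genes, 1 was called higher (fat-spondin) and 0 lower, and 8 had an unadjusted p under 0.05, all on the higher side (50.0%, against 3.05% of all genes). Lsp2 encodes a storage protein of larval hemolymph. It was at 1.91 and 2.03 in cut discs, against -1.42 and 0.64 in intact discs, and the intact replicates were so far apart that the difference of 2.36 ± 0.517 had an adjusted p of 0.218. The lipoprotein gene apolpp, which encodes the carrier of lipids in hemolymph, was at 2.04 and 1.67 in cut discs, against -0.05 and 0.90 in intact discs (difference 1.43 ± 0.268, adjusted p = 0.146). Fbp2, named fat body protein, was at 0.90 and 0.95 in cut discs, against -0.36 and 0.06 in intact discs (difference 1.07 ± 0.151, adjusted p = 0.0622). Obp99b, of the odorant binding protein family, was at 1.49 and 1.27 in cut discs, against 0.02 and 0.61 in intact discs (difference 1.07 ± 0.212, adjusted p = 0.178). For these 4 genes every cut array lay above every intact array, which was a condition of the rule that named Lsp2. Gbp1, Gbp2 and Fbp1, chosen after their values were seen, had differences of 0.49, 0.43 and 0.36, with unadjusted p-values of 0.0143, 0.0286 and 0.0305.

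The other 8 genes of the list had differences from -0.16 to 0.20 and no unadjusted p under 0.05. Desat1 and FASN1, which encode enzymes of fatty acid synthesis, had differences of 0.05 and 0.02. Tsf1, a transferrin gene that the study names, was at 1.42 and 1.21 in cut discs, against 1.26 and 0.97 in intact discs (difference 0.20, 95% interval -0.12 to 0.52). Genes of yolk, eggshell and germline, which the female host expresses, had a median of -0.03, with 0 of 17 at an unadjusted p under 0.05. The yolk protein gene Yp2 was at 0.03 and 0.11 in cut discs, against 0.72 and 0.29 in intact discs (difference -0.44, adjusted p = 0.902). Muscle genes had a median of 0.01 over 20 members. Of these, 2 had an unadjusted p under 0.05 on the higher side (10%, against 3.05% of all genes). On the lower side there was 1 (5%, against 2.89%). Myoblast factors had a median of 0.03 over 10, with 0 at that p on either side. By single arrays the median ratio of the hemocyte list ran from 0.30 to 0.46 in cut discs, against 0.07 to 0.20 in intact discs, and that of the fat body list from 0.33 to 0.46 in cut discs, against -0.03 to 0.13 in intact discs. The part of these cells in the other differences reported here was not tested.

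**Figure D3:**
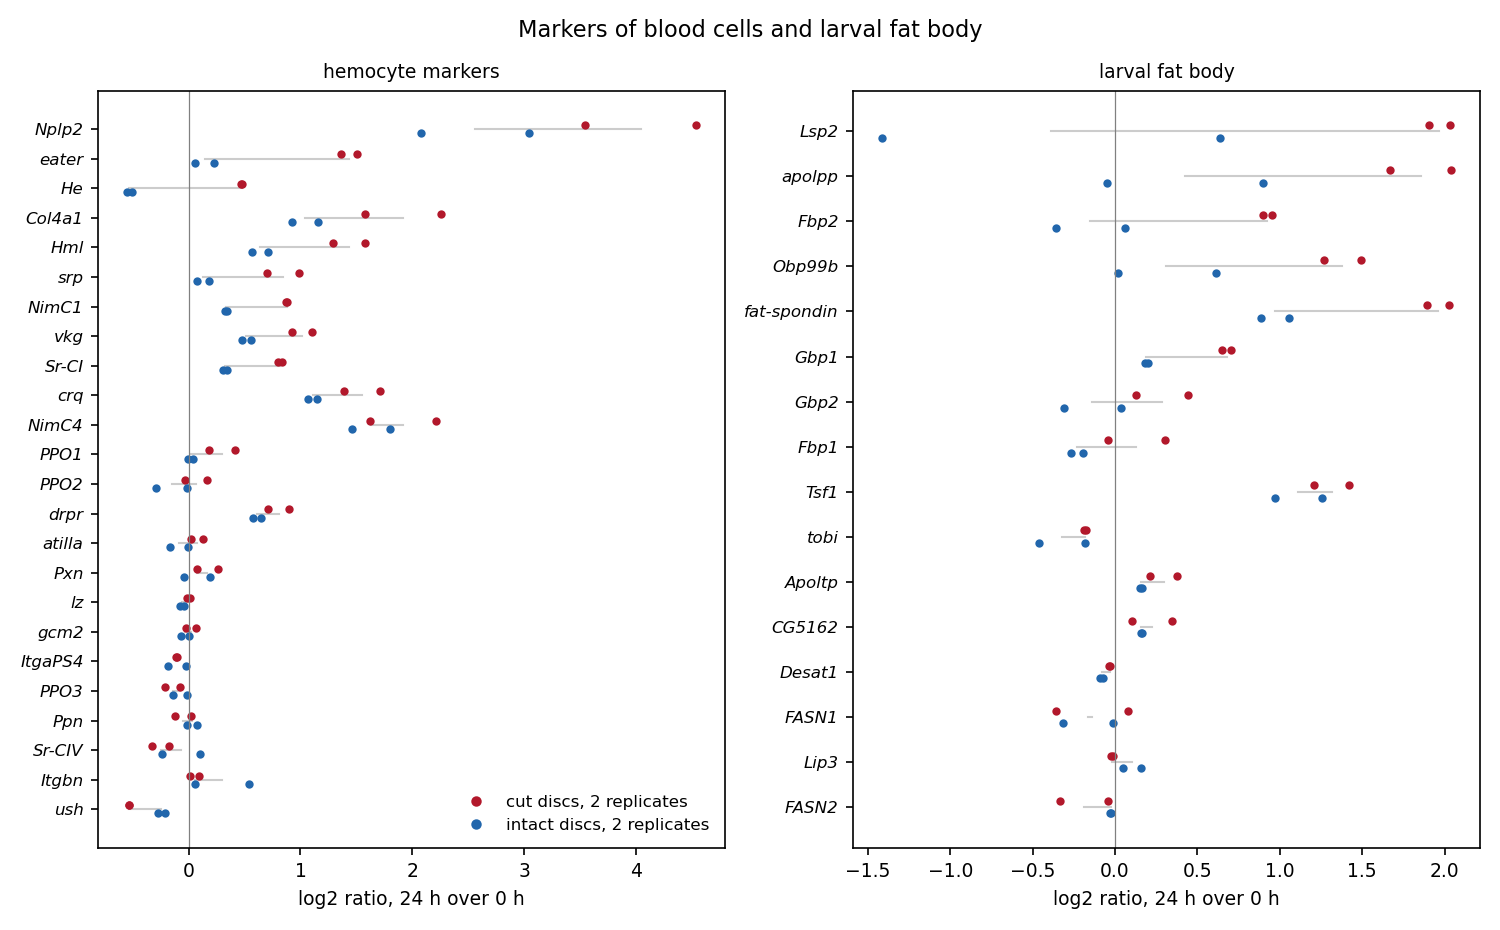
Log2 ratios of 24 over 0 hours (x axis) for 24 hemocyte and 16 larval fat body genes (rows), ordered by the difference. Red dots, above, are the 2 cut replicates, blue dots, below, the 2 intact replicates, and the grey line joins the group means. In the upper rows of both panels the red dots lie to the right of the blue ones, while the lower rows overlap or, for ush, Lip3 and FASN2, lie the other way.

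Cuticle protein genes, which the disc epithelium expresses as it turns to making adult or pupal cuticle, had more members on the higher side than on the lower. Of 95 measured, 1 was called higher (Cpr97Eb) and 0 lower. On the higher side 16 had an unadjusted p under 0.05 (16.8%, against 3.05% of all genes). On the lower side there were 2 (2.11%, against 2.89%). The median was 0.10. Cpr72Ea was at 2.75 and 2.23 in cut discs, against 1.1 and 0.84 in intact discs (difference 1.52 ± 0.373, adjusted p = 0.271), and Cpr49Ah at 1.51 and 1.14 in cut discs, against -0.11 and 0.08 in intact discs (difference 1.34 ± 0.258, adjusted p = 0.161). Cpr35B had a smaller difference with a tighter spread, 0.69 ± 0.122 (adjusted p = 0.118). Cpr49Ac lay on the other side, at -2.73 and -2.20 in cut discs, against -1.30 and -1.73 in intact discs (difference -0.96, adjusted p = 0.196).

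Genes of the chitin layer and the apical matrix were split. The imaginal disc growth factors are secreted, chitinase-like proteins that support disc cells in culture. Idgf1 was at 1.67 and 1.51 in cut discs, against 1.03 and 0.80 in intact discs (difference 0.68 ± 0.134), Idgf2 had a difference of 0.71 ± 0.139 and Idgf6 one of 0.90 ± 0.181, with adjusted p-values from 0.178 to 0.182. On the lower side, neo, a gene of the zona pellucida domain proteins that tie the apical membrane to the matrix, was at -3.28 and -2.83 in cut discs, against -2.30 and -2.32 in intact discs (difference -0.74, adjusted p = 0.199). Over the list of 30 genes, 5 had an unadjusted p under 0.05 on the higher side (16.7%, against 3.05% of all genes). On the lower side there were 2 (6.67%, against 2.89%), and 0 were called.

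Ecdysone response genes had members on both sides. Ecdysone is the steroid hormone that drives molting and metamorphosis, and the timing of its target genes marks the developmental stage. Of 18 genes, 3 had an unadjusted p under 0.05 on the higher side (16.7%, against 3.05% of all genes). On the lower side there were 5 (27.8%, against 2.89% of all genes), with 0 called in either direction. Blimp-1 encodes a repressor induced by ecdysone that times pupal development. It was at -1.66 and -1.35 in cut discs, against -0.45 and -0.62 in intact discs, every cut array below every intact one (difference -0.97 ± 0.159, adjusted p = 0.107). The nuclear receptor gene Hr3 was at -1.25 and -0.78 in cut discs, against -0.14 and -0.30 in intact discs (difference -0.80, adjusted p = 0.196), and ImpE3, an ecdysone-inducible disc gene, at -2.64 and -2.25 in cut discs, against -1.71 and -1.86 in intact discs (difference -0.66, adjusted p = 0.237). Eip93F, which acts late in metamorphosis, lay on the higher side, at 1.72 and 1.54 in cut discs, against 1.18 and 0.67 in intact discs (difference 0.71, adjusted p = 0.326), as did ftz-f1 and EcR, named outside the rule, at 0.47 and 0.38.

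Among antimicrobial peptide genes the differences were uneven. From 32 entries written for the list, 16 genes were measured. These 16 had a median of 0.26 but 9 positive values (56.2%, against 47.1% of all genes). On the higher side 3 had an unadjusted p under 0.05 (18.8%, against 3.05% of all genes), and 0 were called. BomT2, a gene of the bomanin peptides that the Toll pathway induces, was at 2.20 and 2.18 in cut discs, against 1.55 and 1.27 in intact discs (difference 0.78 ± 0.16, adjusted p = 0.185). The attacin gene AttB had a difference of 0.48 (adjusted p = 0.702). Its intact arrays read 1.74 and -0.05 in replicate 1 and 1.45 and 1.26 in replicate 2. The cut arrays of AttB ran from 1.03 to 2.13 and so overlapped them. Drosomycin (Drs), the antifungal peptide gene with the highest ratios of the list, was at 5.87 and 3.89 in cut discs, against 6.0 and 4.87 in intact discs (difference -0.56, 95% interval -2.04 to 0.93). Its replicates overlapped, and a difference in either direction could not be told at this spread.

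Immune recognition and signalling genes had 5 of 26 at an unadjusted p under 0.05 on the higher side (19.2%, against 3.05% of all genes), 0 on the lower and 0 called. The Toll ligand gene spz was at 0.76 and 0.88 in cut discs, against 0.26 and 0.14 in intact discs (difference 0.62 ± 0.143, adjusted p = 0.248), with all cut arrays above all intact ones. PGRP-LF, which restrains the Imd pathway, had a difference of 0.62 (adjusted p = 0.309), and the serpin gene nec, which restrains Toll, one of 0.55 (adjusted p = 0.435). Tep3, a gene of the thioester proteins, had 0.37 (adjusted p = 0.772). Positive differences were found for 17 of the 26 (65.4%, against 47.1% of all genes).

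JNK signalling, the pathway that closes the wound, showed no called gene. Of 15 genes of the cascade 0 had an unadjusted p under 0.05, and their median was 0.04. The phosphatase gene puckered (puc), a JNK target that feeds back on the pathway, was at 0.54 and -0.06 in cut discs, against 0.17 and 0.45 in intact discs (difference -0.07, 95% interval -0.52 to 0.39). The receptor gene grnd and its ligand gene egr, which start the cascade, had differences of 0.41 and 0.24 (unadjusted p = 0.0885 and 0.26). Both replicates of puc overlapped between the groups, and its interval covers differences in either direction.

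From 29 entries written as wound and JNK targets, 20 genes were measured. On the higher side 3 of them had an unadjusted p under 0.05 (15%, against 3.05% of all genes). On the lower side there were 2 (10%, against 2.89%). Gadd45, a stress gene, was at 1.94 and 2.12 in cut discs, against 1.52 and 0.65 in intact discs (difference 0.94 ± 0.246, adjusted p = 0.326). Dopa decarboxylase (Ddc), whose product hardens cuticle around wounds, was at 0.19 and 0.57 in cut discs, against -0.09 and -0.34 in intact discs (difference 0.59, adjusted p = 0.448), and ple, which acts a step earlier in the same pathway, had a difference of 0.52 (95% interval -0.30 to 1.34). Matrix metalloproteinase 2 (Mmp2), which cleaves basement membrane, was at -0.46 and -0.22 in cut discs, against 0.28 and 0.20 in intact discs, negative in both cut replicates and positive in both intact ones (difference -0.58 ± 0.131, adjusted p = 0.237). The transcription factor gene cabut (cbt), which the study names, was at 1.59 and 1.20 in cut discs, against 1.39 and 1.29 in intact discs, a difference of 0.05 with a 95% interval of -0.61 to 0.72.

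Of 16 cell death genes, 2 had an unadjusted p under 0.05 on the lower side (12.5%, against 2.89% of all genes). On the higher side there was 1, crq (6.25%, against 3.05%), and 0 were called. The caspase activator gene Dark and Bruce, which encodes a large inhibitor of apoptosis, had differences of -0.30 and -0.48 (adjusted p = 0.795 and 0.332), both with every cut array below every intact array. Of 18 heat shock and chaperone genes, 3 had an unadjusted p under 0.05 on the higher side (16.7%, against 3.05% of all genes) and 0 on the lower, with 0 called. The co-chaperone gene DnaJ-1 was at -0.48 and -0.43 in cut discs, against -1.65 and -0.90 in intact discs (difference 0.83 ± 0.247, adjusted p = 0.467), and the small heat shock gene Hsp26 at -1.12 and -0.88 in cut discs, against -2.0 and -1.79 in intact discs (difference 0.90, adjusted p = 0.754). Ratios of both genes were negative in every replicate and nearer to 0 in cut discs. The third was stv, which encodes a co-chaperone of Hsp70, at 0.43 (adjusted p = 0.656), and the median of the list was 0.01.

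Glutathione transferases, which conjugate toxic compounds and lipid peroxides, had more members on the lower side than on the higher. Of 33 genes of this list and of oxidative stress, 10 differences were positive (30.3%, against 47.1% of all genes). On the lower side 6 had an unadjusted p under 0.05 (18.2%, against 2.89% of all genes). On the higher side there was 1 (3.03%, against 3.05%). GstD2 was at 0.42 and 0.31 in cut discs, against 1.68 and 1.34 in intact discs, every cut array below every intact one (difference -1.14 ± 0.193, adjusted p = 0.107). GstE8 was at -0.69 and -0.35 in cut discs, against 0.31 and -0.11 in intact discs (difference -0.62 ± 0.175, adjusted p = 0.403), and GstD9 and GstE7 had differences of -0.52 and -0.51 (adjusted p = 0.454 and 0.492). The transferase genes lie in clusters of similar copies, so probes of neighbours may share RNA and are not independent. The median of the list was -0.12, and 0 genes were called. Its median ratio was -0.05 and 0.042 in the cut replicates, against 0.275 and 0.02 in the intact ones, so the replicates overlapped.

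Genes for protein folding in the endoplasmic reticulum lay almost wholly on the lower side. Of 18 genes, 1 difference was positive (5.56%, against 47.1% of all genes). An unadjusted p under 0.05 was found for 6, all on the lower side (33.3%, against 2.89% of all genes). The median was -0.21, the lowest of the 35 lists, and ranged from -0.37 to -0.15 over the alternative settings. The list's median ratio was -0.85 and -0.74 in the cut replicates, against -0.72 and -0.44 in the intact ones, negative in all 4. By single arrays it ran from -1.015 to -0.47 in cut discs, against -0.725 to -0.34 in intact discs, so the arrays overlapped. The disulfide isomerase gene Pdi was at -1.42 and -1.0 in cut discs, against -0.69 and -0.58 in intact discs (difference -0.57 ± 0.158, adjusted p = 0.381). Hsc70-3, an Hsp70 chaperone of the compartment, had a difference of -0.51, prtp one of -0.47, and the proline isomerase gene Fkbp14 one of -0.58, with adjusted p-values from 0.342 to 0.661. No gene of the list was called.

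**Figure D4:**
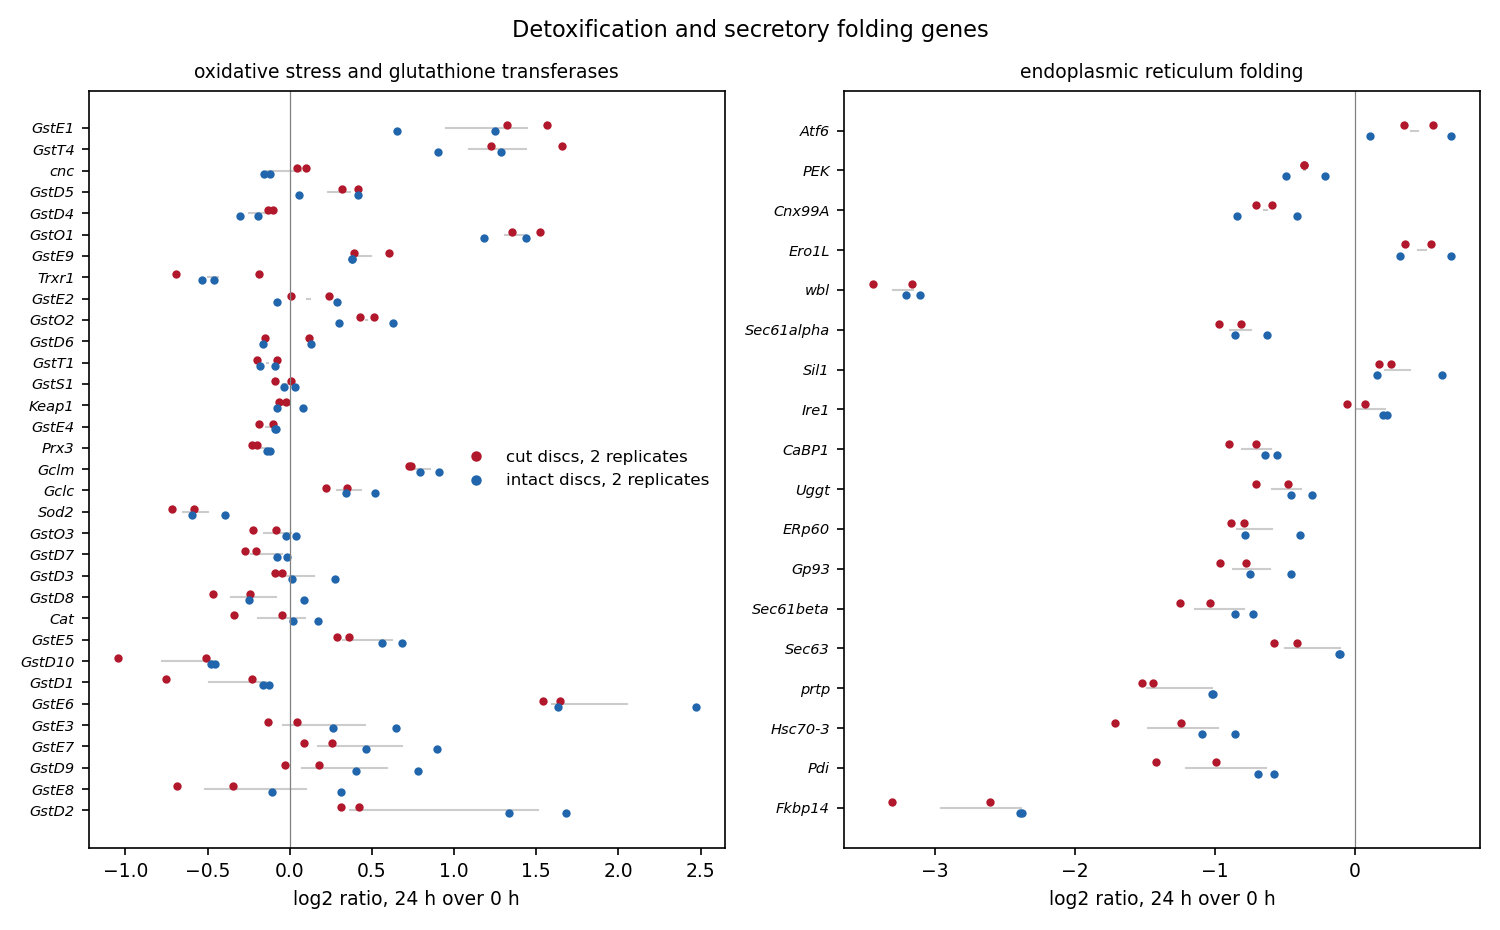
Log2 ratios of 24 over 0 hours (x axis) for 33 glutathione transferase and oxidative stress genes and 18 folding genes of the endoplasmic reticulum (rows), ordered by the difference. Red dots, above, are the 2 cut replicates and blue dots, below, the 2 intact replicates. In the lowest rows of both panels the red dots lie to the left of the blue ones, most widely for GstD2, and none of these genes was called.

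Notch signalling genes, which the study follows in regeneration, had 20 of 26 positive differences (76.9%, against 47.1% of all genes) and a median of 0.10. The 26 genes were measured from 35 entries written for the list. On the higher side 3 had an unadjusted p under 0.05 (11.5%, against 3.05% of all genes), and 0 were called. The repressor genes of the E(spl) complex are direct Notch targets. E(spl)mbeta-HLH was at 0.53 and 1.05 in cut discs, against 0.29 and -0.30 in intact discs (difference 0.79 ± 0.231, adjusted p = 0.435), and E(spl)mdelta-HLH at 0.83 and 0.57 in cut discs, against 0.14 and 0.29 in intact discs (difference 0.48 ± 0.131, adjusted p = 0.367). E(spl)m3-HLH, which the study names, was at 1.74 and 0.45 in cut discs, against 0.66 and 0.82 in intact discs, so that its cut replicates lay on either side of the intact ones (difference 0.36, 95% interval -0.45 to 1.17). E(spl)m7-HLH, named there too, had a difference of 0.38 (95% interval -0.11 to 0.87).

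In the Wg, JAK/STAT, EGFR and Dpp lists, 0 to 2 genes had an unadjusted p under 0.05 and 0 were called. Only 10 of the 29 genes written for the Wg list were measured, and wg itself was not among the genes analysed. Of these 10, 0 had an unadjusted p under 0.05, which says little about the pathway as a whole. The ligand gene Wnt6 was at -0.80 and -0.18 in cut discs, against -0.06 and -0.12 in intact discs (difference -0.40, unadjusted p = 0.0603). In the JAK/STAT list chinmo, a transcription factor gene regulated by the pathway, was at 1.01 and 0.85 in cut discs, against 0.33 and 0.16 in intact discs (difference 0.69 ± 0.18, adjusted p = 0.332), while Stat92E, the transcription factor of the pathway, had a difference of 0.08. In the EGFR list the feedback inhibitor gene argos (aos) was at 0.44 and 0.34 in cut discs, against 0.01 and -0.35 in intact discs (difference 0.56, adjusted p = 0.562). The Dpp list had 1 gene of 24 at an unadjusted p under 0.05 on each side (4.17%). Over all genes the shares were 3.05% on the higher side and 2.89% on the lower. The Medea gene (Med), the common Smad of the pathway, was on the lower side, at 0.25 and -0.01 in cut discs, against 0.56 and 0.42 in intact discs (difference -0.36, adjusted p = 0.694).

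Territory genes of the disc were mostly slightly negative. Of 21 genes of the wing pouch, hinge and notum, 5 differences were positive (23.8%, against 47.1% of all genes). On the lower side 2 had an unadjusted p under 0.05 (9.52%, against 2.89% of all genes). The list's median ratio was -0.09 and -0.265 in the cut replicates, against -0.275 and -0.065 in the intact ones, so the replicates overlapped. The Iroquois gene araucan (ara), which specifies the notum and veins, was at -0.55 and -0.70 in cut discs, against -0.24 and -0.07 in intact discs (difference -0.47 ± 0.123, adjusted p = 0.326). Because the cut removed part of the posterior compartment, its selector gene en and ligand gene hh are given here although they fall outside the naming rule. The gene en was at 0.41 and 0.12 in cut discs, against 0.05 and 0.31 in intact discs and hh at 0.46 and 0.02 in cut discs, against -0.05 and 0.60 in intact discs, with differences of 0.09 and -0.04. Their replicates overlapped. Of 14 Hippo pathway genes 2 were positive (14.3%, against 47.1% of all genes), with a median of -0.08 and 0 at an unadjusted p under 0.05. Here too the replicates overlapped, with median ratios of -0.017 and -0.142 in cut discs, against -0.055 and 0.101 in intact discs.

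Cell cycle genes showed no call. DNA replication genes had 20 of 30 positive differences (66.7%, against 47.1% of all genes), and 0 had an unadjusted p under 0.05. Their median was 0.06, which ran from -0.01 to 0.15 over the alternative settings. The helicase genes Mcm6 and Mcm3 had differences of 0.32 and 0.19, with both cut replicates above both intact ones. Cyclins and mitosis genes had a median of 0.11 over 25 members, the highest after the blood, fat body and peptide lists, but this ran from -0.03 to 0.22 over the alternative settings. The other histone genes lay on both sides. His3:CG31613 was at -0.57 and -0.49 in cut discs, against -1.80 and -0.86 in intact discs (difference 0.80, adjusted p = 0.588). Its intact arrays read -0.63 and -2.96 in replicate 1 and -1.09 and -0.63 in replicate 2, against -0.62 to -0.42 in cut discs. His4:CG31611 was at -0.52 and -0.45 in cut discs, against 0.23 and -0.28 in intact discs (difference -0.46, adjusted p = 0.726), and both genes are multicopy as well.

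Actin and junction genes had small differences. Of 23 actin regulators 5 differences were positive (21.7%, against 47.1% of all genes). On the lower side 2 had an unadjusted p under 0.05 (8.7%, against 2.89% of all genes). These were kst, a spectrin gene, at -0.33 and sn, the fascin gene, at -0.35. The median ratio of the actin list was -0.015 in both cut replicates, which lay between the intact ones at 0.115 and -0.02. The septate junction gene cora had 0.38 (adjusted p = 0.684). In the basement membrane list SPARC, which encodes a collagen-binding glycoprotein, was at 1.99 and 1.62 in cut discs, against 1.15 and 0.92 in intact discs (difference 0.77 ± 0.172, adjusted p = 0.231), alongside the collagen genes above, while the integrin gene if had a difference of -0.33. Ribosome assembly genes and chromatin regulators had medians of -0.01 and -0.03, with 1 of 26 and 0 of 24 genes at an unadjusted p under 0.05. Chromatin genes that the study names had differences of -0.13 for ash2, 0.05 for Bap60 and -0.05 for Nap1, with 95% intervals of -0.50 to 0.25, -0.26 to 0.37 and -0.31 to 0.22.

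**Figure D5:**
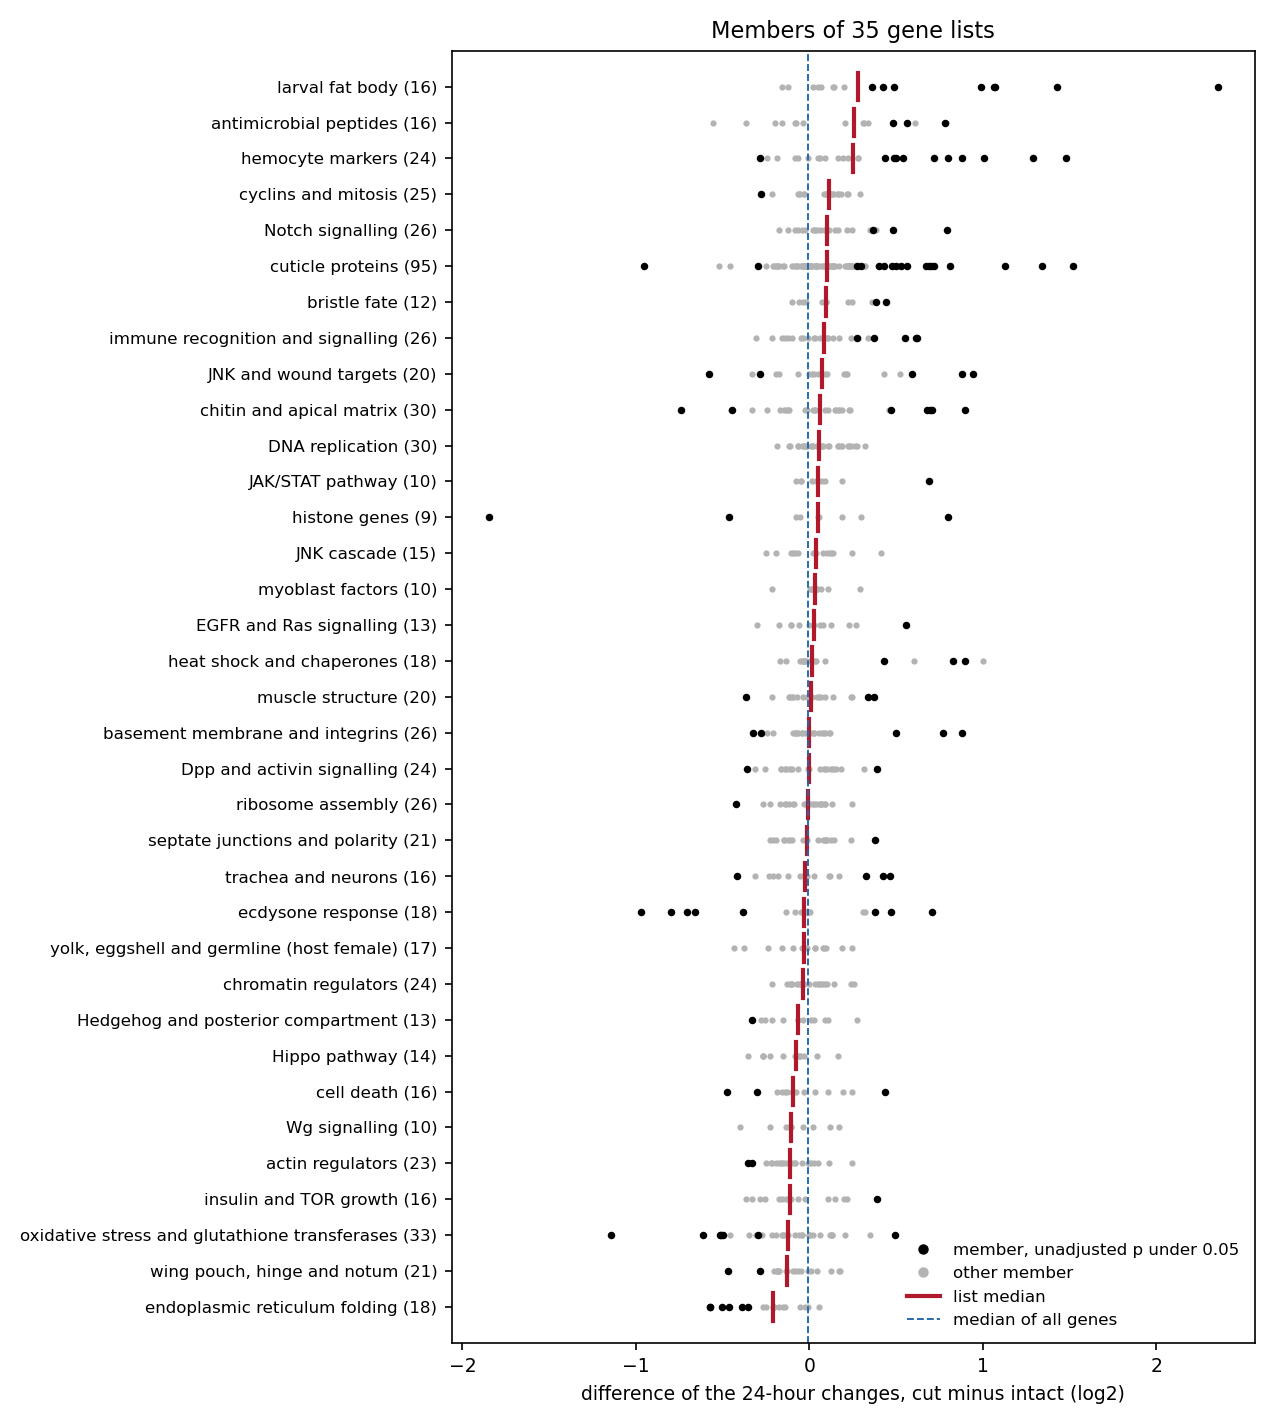
Differences of the 24-hour changes, cut minus intact discs (x axis, log2), for the members of 35 gene lists (rows, with the number measured), ordered by the list median. Black dots are members with an unadjusted p under 0.05, grey dots are the others, the red bar is the list median and the dashed line the median of all genes. Fat body, antimicrobial peptide and hemocyte lists have the highest medians, from 0.25 to 0.28, and the folding list the lowest, -0.21.

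The naming rule also took in genes of no list that were not called but kept all cut arrays on one side of all intact arrays. On the higher side these were TER94, which encodes an ATPase that extracts proteins for degradation, at -0.07 and 1.85 in cut discs, against -0.81 and -0.33 in intact discs (difference 1.45), Miox, which encodes an inositol oxygenase, at 2.98 and 2.17 in cut discs, against 1.32 and 0.96 in intact discs (difference 1.43), Obp99c, of the odorant binding protein family, at 2.78 and 2.39 in cut discs, against 1.59 and 1.04 in intact discs (difference 1.27), and CG13315 (difference 1.20). Their adjusted p-values ran from 0.0862 for CG13315 to 0.627 for TER94, whose cut replicates were far apart. On the lower side CG2444 had a difference of -2.0 ± 0.288 and was at -2.88 and -2.03 in cut discs, against -0.10 and -0.80 in intact discs (adjusted p = 0.0622). The aminopeptidase gene SP1029 was at -3.0 and -1.97 in cut discs, against -1.26 and -1.19 in intact discs (difference -1.26, adjusted p = 0.208), and AdamTS-A, which encodes a secreted metalloprotease, at -0.96 and -0.95 in cut discs, against 0.02 and -0.20 in intact discs (difference -0.86, adjusted p = 0.0622). CG7720, CG13258, CG3823 and CG2663 had differences of -1.08, -0.99, -0.95 and -0.84, with adjusted p-values of 0.0536, 0.6, 0.0906 and 0.185.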

How the data were processed

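RNA of cut and intact wing discs was compared on 2-colour oligonucleotide arrays, 24 against 0 hours, with the dyes swapped on the second array of each replicate. The authors took GenePix intensities, normalised each set of 4 arrays on its own by the mad method of OLIN and fitted limma (version not given in the sources used here). The deposited values are log2 ratios, with base and direction not stated in the file. Base 2, which limma uses, was assumed. Later over earlier was taken as the likely direction because genes that the study names as raised or lowered within 24 hours, or later, have those signs in the file. Dye-swapped arrays are turned the same way, since they correlate positively over genes (0.721 and 0.844 in cut discs, 0.802 and 0.686 in intact discs).

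Of 16416 probes, 13164 had 1 gene symbol, 101 several and 3151 none. Symbols were brought up to date by gene ID (12533), by accession (120) or kept (511). Probes of a gene were averaged, then the arrays of a replicate. The 6 replicate means of the 3 groups in the series entered 1 model in limma 3.58.1 (R 4.3.3), with 3 residual degrees of freedom and 5.64 from moderation, and p-values were adjusted by Benjamini-Hochberg over 12058 genes. No value was missing and no intensity filter could be set. The steps were tested on simulated data.

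Named genes are those called, the 10 largest and 10 lowest differences at an unadjusted p under 0.05 whose cut and intact arrays do not overlap, up to 4 members of each of 35 lists by p, and genes the study names. The members and lists were chosen with earlier results of these data known. No list was tested as a set. For most lists fewer genes were measured than were written. Alternatives were other thresholds, fits, scalings, dye orders, single probes and left-out replicates. Replicate numbers are shared by cut and intact discs, but nothing says that they pair them. Genes that the probes do not name with 1 symbol were not analysed here.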

Additional observations from a re-analysis of the deposited data

Results flagged for a closer look

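The test of the difference itself, between the change in cut discs and that in intact discs, picked out the 9 genes of the report. The differences were 1.29 for eater, 1.25 for CG4259, 1.13 for Cpr97Eb, 1.13 for CG14629, 1.01 for He, 0.99 for fat-spondin, 0.90 for CG18641, -1.41 for CG9416 and -1.85 for His1:CG31617. Over 15 alternative fits each kept its direction. His1:CG31617 stayed past the threshold in 8 of the 15, and the other 8 genes in 5 or 6.

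A single array stood apart from the other 3 of its group in 1 of 52 sets of 4 arrays checked. For CG3823 the intact arrays read -1.04 on dye-swap A of replicate 2 and -1.0 on each of the others, so the gap took up the whole range (a ratio of 1). The range itself is 0.04 on the log2 scale. By chance about 1 set in 20 would be picked out.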

How the results depend on the processing

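The calls, 7 genes higher and 2 lower in cut discs, changed with most settings that alter how replicates enter, and no difference of a called gene changed sign. All 9 genes were shared with the 15 called (10 higher, 5 lower) when the 4 replicate means were fitted alone, with the 12 called under robust moderation (9 higher, 3 lower) and with the 9 called after scaling to 1 median absolute deviation. Centring arrays on their medians kept 5 (3 higher, 2 lower). At 2-fold there were 5 higher and 2 lower, and with no fold threshold 7 and 2. A fit of the 8 single arrays, with dye order as a term and the replicate as a random block, gave 2 higher and 1 lower, with 2 of the 3 shared. Dye-swap A arrays alone gave 0 higher and 2 lower, neither of them among the 9, and dye-swap B arrays 0 and 0. Treat against 1.5-fold gave 0 and 0. Each probe as its own feature gave 2 higher and 2 lower. Left-out replicates gave 0 to 2 higher and 0 to 1 lower.

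Nothing shows that equal replicate numbers pair cut with intact samples: over genes the deviations of same-numbered cut and intact replicates correlated at -0.12. The replicate number as a block gave 0 higher and 0 lower. The crossed pairing, chosen after seeing the data, gave 15 higher and 7 lower. Leaving out dye-swap B of cut replicate 2, also chosen after seeing the data, gave 41 and 28.

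At an unadjusted p under 0.05 the 368 higher and 348 lower genes were 226 and 159 in dye-swap B arrays alone. The lower ones were 595 in the fit of 8 arrays, 665 without that array and 222 to 293 without a replicate. For these counts the cause was not tested. No alternative filter could be run, since no value was missing. Without intensities, neither depth nor signal over background could be weighed.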

Other observations

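Families of genes that share a name were picked after their values were seen and are given without a test. All 6 Idgf genes and 3 of the Sec genes are also members of lists in the report. Of 8 Npc2 genes, whose products bind sterols, 3 had an unadjusted p under 0.05, all on the higher side (3.05% of all genes do so). Npc2b was at 2.89 and 2.59 in cut discs, against 1.70 and 1.31 in intact discs (difference 1.24), Npc2a at 0.91 and 0.93 in cut discs, against 0.27 and 0.21 in intact discs (difference 0.68) and Npc2g at 0.87 and 1.01 in cut discs, against 0.28 and 0.36 in intact discs (difference 0.62). The replicates did not overlap in these 3 genes, and the other 5 had differences from -0.05 to 0.05. Of 6 Idgf genes 5 differences were positive (47.1% of all genes are), with a median of 0.57, and Idgf4 was the exception at -0.25.

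Genes whose symbol is Sec followed by a number, grouped by that name and not by function, lay on the lower side in 16 of 17 cases. Their median was -0.20, and 4 had an unadjusted p under 0.05, all on the lower side (2.89% of all genes do so). Genes of the large mitochondrial ribosomal subunit (mRpL) were positive in 6 of 43 cases, with a median of -0.12. For the large cytosolic subunit (RpL) these were 14 of 23 and 0.03, and 47.1% of all genes were positive. In 20 of the 43 mRpL genes both cut replicates lay below both intact ones (20.0% of all genes do so). An unadjusted p under 0.05 was found for 3, all on the lower side (2.89% of all genes do so).

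Just beyond the threshold, 13 genes had an adjusted p from 0.05 to under 0.1, with 9 on the higher side and 4 on the lower. Besides those named in the report they include mthl2, of the methuselah receptor family, at a difference of 1.19, and fondue (fon), a clot protein of the hemolymph, at 0.89.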
